A study of Mus musculus with 17 samples.

Results

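Pax5 encodes a paired domain transcription factor on mouse chromosome 4, and its locus was followed here in the ATAC-seq libraries of 3 B cell stages. Every accessible region that the deposited table assigned to Pax5, either as the transcribed unit it lies in or as the nearest transcription start, was taken as a member, which gave 21 of the 66177 regions of the table. All 21 carried the symbol Pax5 in both columns. Against the table's Pax5 transcript, which lies on the minus strand of mm9 from 44544378 to 44723312 (178.9 kb), 1 region was annotated as promoter, 18 lay in introns and 2 lay upstream and outside genes. Regions are called here by the distance of their center from that transcription start, with positive values inside the gene.

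The cells were lymph node naive B cells (nB; B220+ GL7- Fas-), phycoerythrin (PE)-specific lymph node germinal center B cells (GCB; B220+ GL7+ Fas+ PE+) and CD138+ bone marrow plasma cells (BMPC). The Dnmt3-deficient mice, called KO, were heterozygous for a Cre allele and carried Dnmt3a fl/fl and Dnmt3b fl/fl, whereas the littermates called C had no Cre and the same floxed alleles, on the background B6;129S4-Dnmt3atm3.1Enl Dnmt3btm5.1Enl/Mmnc. Mice entered the experiments at 8 to 12 weeks of age. The nB came from unimmunized mice, whereas GCB and BMPC were sorted 30 days after PE in complete Freund's adjuvant. Cre expression is restricted to the B lineage and begins at its early bone marrow stages. Libraries were made from 3000 to 5000 cells of 1 mouse (nB, BMPC) or of a pool of 2 mice (GCB), giving 3 C and 2 KO nB, 2 C and 4 KO GCB, and 3 C and 2 KO BMPC libraries with values. All nB libraries were from males and all BMPC libraries from females, so sex, immunization and tissue cannot be told apart from cell type in the nB to BMPC comparison.

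Pax5 commits lymphoid progenitors to the B lineage, maintains B cell identity by activating B cell genes and repressing genes of other lineages, and is turned off when B cells become plasma cells, where Blimp-1 (Prdm1) acts as its repressor. The gene is transcribed from a pair of alternative promoters, each with its own first exon, and a B lineage enhancer has been described in intron 5. ATAC-seq reads out how often a transposase inserts into a stretch of chromatin, and accessibility of a region is not a measure of transcription.

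Signal is given as RPPM, the reads in a region scaled to a library total of 1000000 reads inside peaks. Libraries held 4104875 to 6079018 reads in regions in nB, 907959 to 2280954 in GCB and 5357687 to 8232313 in BMPC, so 3 reads, the limit that a count of 0 allows, ranged from 0.364 to 3.30 RPPM. Mitochondrial regions took 7.43% to 10.1% of the reads in GCB and 2.57% to 4.59% in the other cells. At their promoter rows, the naive B cell markers summed to 293 to 305 RPPM in nB, 149 to 207 in GCB and 63.2 to 70.1 in BMPC (6 of 7 genes with such a row). The plasma cell markers summed to 221 to 245 RPPM in BMPC and to 127 to 176 elsewhere (5 of 6 genes, Sdc1 having no promoter row). Of these 5, Irf4 alone was lower in BMPC C than in nB C, with means of 44.1 and 57.4 RPPM. Jchain was already at a mean of 22.5 RPPM in GCB C, beside 29.0 in BMPC C. The germinal center list as a whole (6 of 6 genes) did not separate GCB, at 170 to 226 RPPM, from BMPC, at 181 to 200. No T cell marker (0 of 6), 2 of 5 myeloid, 1 of 4 erythroid and 1 of 3 NK markers had a promoter row, with sums of 3.92 to 13.6, 4.05 to 15.8 and 0.558 to 6.61 RPPM for the last 3. The 10 last exons of Dnmt3a and of Dnmt3b overlapped none of the 9 and 4 regions of these genes, so the deletion could not be checked from these values.

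The middle 200 bases of 5 Pax5 regions are given below, on the minus strand (the strand of Pax5) of mm9, as examples of members with different courses over the 3 cell types. Capitals mark matches, on either strand, to the cores of motifs of factors active in B cells and plasma cells. Those searched were E2A (CAGCTG), PU.1 (GGAAGT), IRF (GAAAC), EBF (CCCNNGGG), PAX5 (GCGTGAC), BLIMP1 (AGTGAAA), AP-1 (TGANTCA) and the octamer (ATGCAAA). The +42.9 kb and +29.9 kb regions lie in introns 5 and 4 and the +96.0 kb region in intron 6 of the GENCODE transcript Pax5-001; all 3 were lower in BMPC.
+42.9 kb region, chr4:44680361-44680560: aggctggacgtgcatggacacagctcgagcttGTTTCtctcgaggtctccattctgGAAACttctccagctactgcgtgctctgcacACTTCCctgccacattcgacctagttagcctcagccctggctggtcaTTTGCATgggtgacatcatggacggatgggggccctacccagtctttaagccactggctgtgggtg
+29.9 kb region, chr4:44693305-44693504: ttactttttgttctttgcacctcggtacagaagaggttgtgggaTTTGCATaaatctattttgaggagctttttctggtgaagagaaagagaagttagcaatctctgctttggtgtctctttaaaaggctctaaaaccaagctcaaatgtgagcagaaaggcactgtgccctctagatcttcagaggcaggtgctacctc
+96.0 kb region, chr4:44627195-44627394: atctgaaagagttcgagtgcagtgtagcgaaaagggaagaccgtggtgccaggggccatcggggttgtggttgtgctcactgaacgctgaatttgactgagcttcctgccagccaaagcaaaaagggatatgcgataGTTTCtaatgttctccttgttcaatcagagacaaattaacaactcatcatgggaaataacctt
The +5.9 kb region of intron 1 kept most of its signal in BMPC, and the +85.7 kb region of intron 6 was called higher in BMPC C than in nB C.
+5.9 kb region, chr4:44717323-44717522: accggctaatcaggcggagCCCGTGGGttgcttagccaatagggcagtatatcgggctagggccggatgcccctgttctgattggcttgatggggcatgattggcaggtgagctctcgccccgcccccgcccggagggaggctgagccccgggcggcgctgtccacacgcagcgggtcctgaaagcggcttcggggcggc
+85.7 kb region, chr4:44637558-44637757: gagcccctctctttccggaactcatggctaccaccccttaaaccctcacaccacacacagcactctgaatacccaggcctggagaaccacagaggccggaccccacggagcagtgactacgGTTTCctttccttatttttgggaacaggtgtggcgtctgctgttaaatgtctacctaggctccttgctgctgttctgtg

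Accessibility over the whole locus was highest in nB, intermediate in GCB and lowest in BMPC, with no overlap between the cell types. Summed over the 21 regions, signal in nB was 376, 349 and 352 RPPM in the C libraries and 411 and 382 in the KO libraries. In GCB it was 256 and 265 RPPM in C and 236, 262, 273 and 267 in KO. In BMPC it was 102, 72.6 and 92.5 RPPM in C and 112 and 74.3 in KO. With genotypes together, the mean log2 sum fell by 0.52 from nB to GCB (1.44-fold; two-sided exact permutation test, 5 against 6 libraries, p = 0.00433, adjusted over the 3 pairs p = 0.00649) and by 1.54 from GCB to BMPC (2.90-fold; the same test, p = 0.00433, adjusted p = 0.00649). From nB to BMPC it fell by 2.06 (4.18-fold; exact permutation test, 5 against 5 libraries, p = 0.00794, adjusted p = 0.00794). These p-values are the smallest the designs allow. No sex held all 3 cell types. The GCB libraries from males summed to 265 RPPM (C) and 267 RPPM (KO), below all 5 male nB libraries, and the 4 from females summed to 236 to 273 RPPM, above all 5 female BMPC libraries. In these bulk libraries, fewer cells with an open locus and less signal per cell cannot be told apart.

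**Figure D1:**
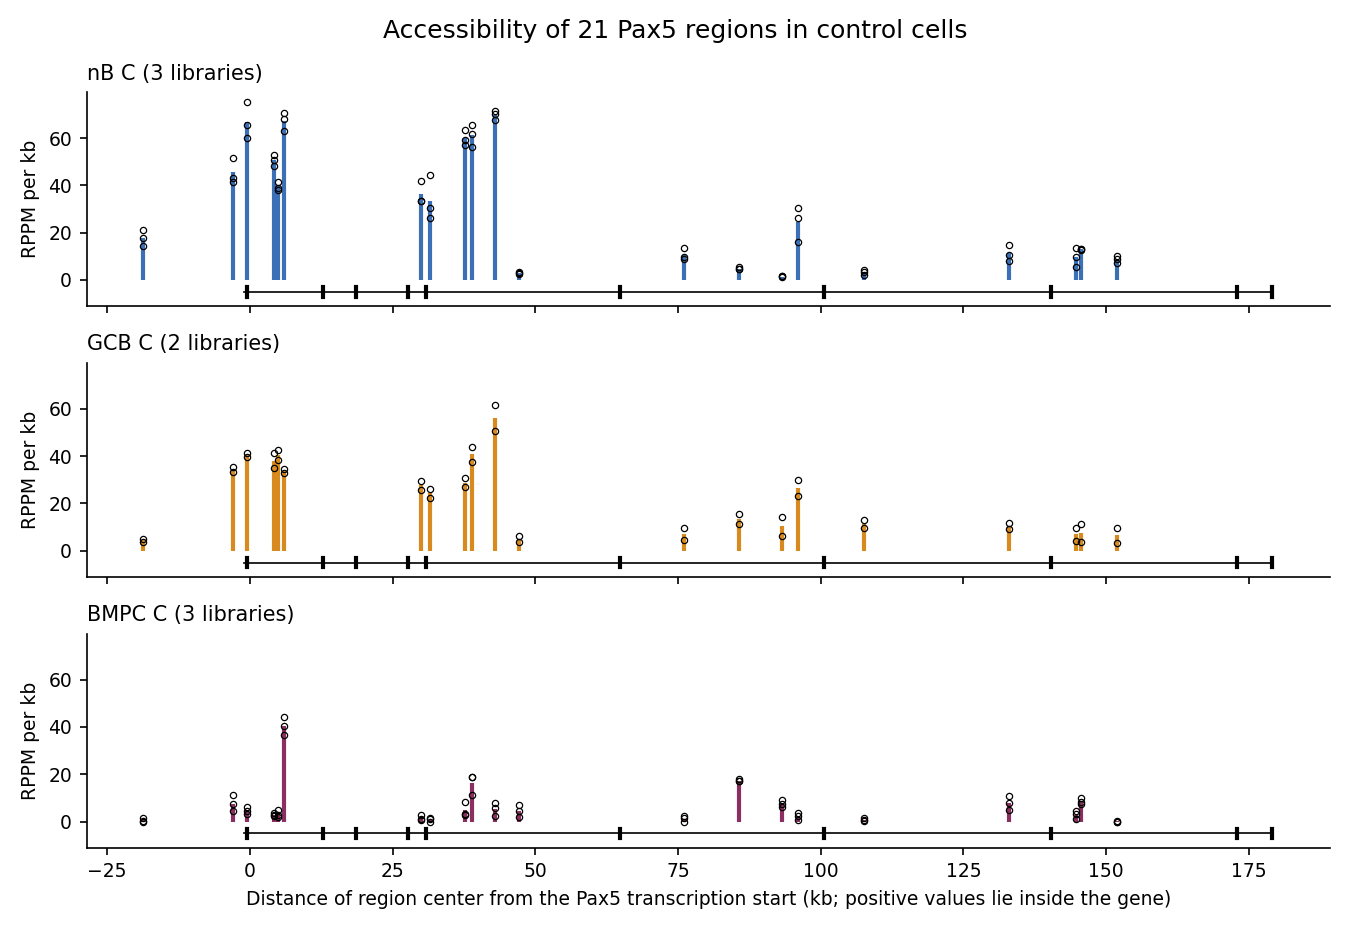
Mean accessibility (RPPM per kb of region width, vertical axis) of the 21 Pax5 regions in C libraries against the distance of the region center from the transcription start in kb (horizontal axis). Bars are group means, open circles are single libraries, and the line with ticks is transcript Pax5-001 with its exons. In BMPC the +5.9 kb region stands at 40.3 RPPM per kb while the promoter is at 4.73.

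The promoter region (mm9 chr4:44723526-44724126) was among the most accessible members in nB and lost most of its signal in BMPC. It overlaps exon 1 of Pax5-001, including 5′ UTR sequence. Its signal was 45.3, 36.0 and 39.5 RPPM in nB C, 23.8 and 24.8 in GCB C, and 3.77, 2.74 and 2.02 in BMPC C. The 3 groups did not overlap. The means were 40.3 ± 4.72 RPPM in nB C (SD, n = 3), 24.3 ± 0.761 in GCB C (n = 2) and 2.84 ± 0.879 in BMPC C (n = 3). From nB C to BMPC C the log2 fold change was -3.44 ± 0.21 (SE; limma, Benjamini-Hochberg adjusted over all regions, adjusted p = 1.08e-13). From GCB C to BMPC C it was -2.74 ± 0.23 (limma adjusted p = 1.95e-10), and from nB C to GCB C it was -0.70 ± 0.23 (limma adjusted p = 0.0170), which did not pass the limits used here of adjusted p at most 0.01 and at least 2-fold. In the KO libraries the promoter gave 47.7 and 37.0 RPPM in nB, 15.4, 23.6, 23.7 and 20.3 in GCB, and 3.89 and 2.05 in BMPC. All 4 KO GCB libraries were again below both nB and above both BMPC libraries of that genotype.

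The +5.9 kb region (mm9 chr4:44717066-44717778, intron 1) behaved differently from the promoter. In GENCODE it ends 188 bases upstream of the first base of transcript Pax5-007 and 781 bases upstream of that of Pax5-015, so it lies just upstream of annotated alternative starts. It held 44.8, 48.4 and 50.3 RPPM in nB C, 24.6 and 23.4 in GCB C, and 28.7, 26.1 and 31.5 in BMPC C. Both GCB and all BMPC libraries were below nB, and BMPC was above GCB. On the log2 scale the step to GCB was -0.96 ± 0.17 (limma adjusted p = 6.05e-05) and that from nB to BMPC -0.72 ± 0.16 (limma adjusted p = 0.000278), both under 2-fold, and 0.25 ± 0.17 from GCB to BMPC (limma adjusted p = 0.245). The KO libraries gave 43.8 and 49.8 RPPM in nB, 19.8 to 33.1 in GCB, and 29.1 and 21.8 in BMPC.

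The ratio of the +5.9 kb region to the promoter therefore moved with differentiation into plasma cells. It was 0.917 to 1.35 over the 5 nB libraries, 0.943 to 1.41 over the 6 GCB libraries and 7.50 to 15.5 over the 5 BMPC libraries. On the scale log2((RPPM at +5.9 kb + 1)/(RPPM at the promoter + 1)), BMPC exceeded nB by 2.68 (two-sided exact permutation test, 5 against 5 libraries, p = 0.00794, adjusted over 3 pairs p = 0.0119) and GCB by 2.70 (exact permutation test, p = 0.00433, adjusted p = 0.0119), whereas nB and GCB differed by 0.02 (exact permutation test, p = 0.996). This pair of regions was chosen after its values were seen. The promoter's share of the summed signal fell from 10.97% ± 0.970 in nB (SD, n = 5) to 8.41% ± 1.12 in GCB (n = 6; exact permutation test, adjusted p = 0.00649) and 3.18% ± 0.680 in BMPC (n = 5; adjusted p = 0.00794 against nB and 0.00649 against GCB). The +5.9 kb region made up 12.8% ± 1.48, 9.68% ± 1.61 and 30.7% ± 4.11 of the sum. Only 11 to 32 reads per BMPC library stood behind the promoter value, against 117 to 240 at +5.9 kb.

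**Figure D2:**
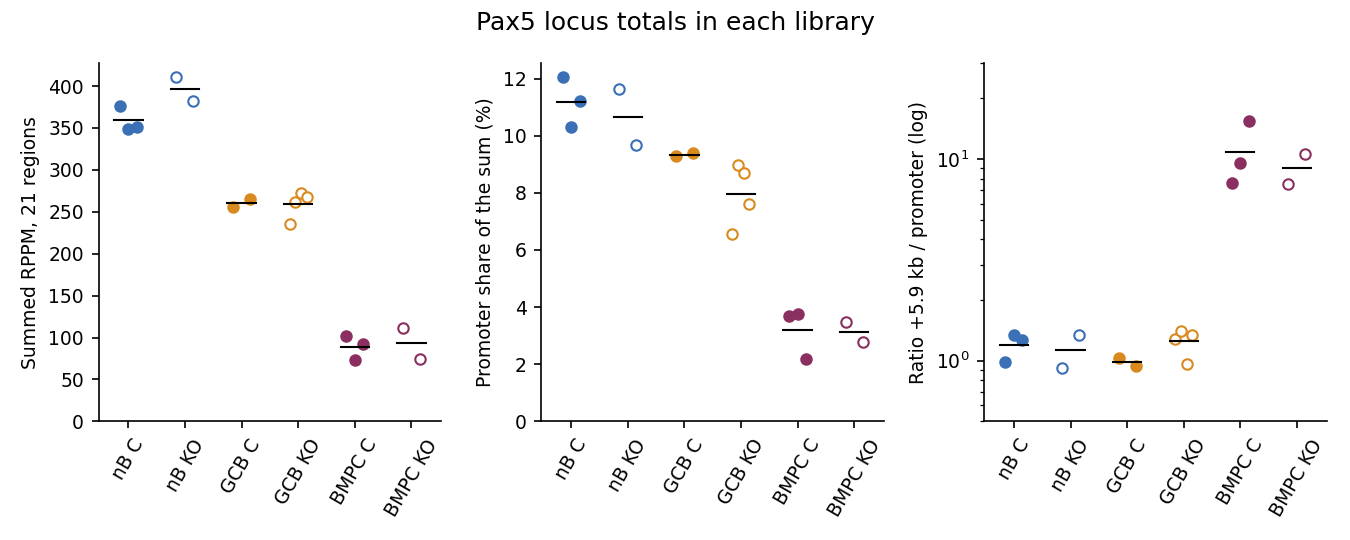
Summed RPPM of the 21 regions, the promoter's percentage of that sum, and the ratio of RPPM at +5.9 kb to RPPM at the promoter (log axis) in each library. Filled circles are C, open circles KO, and lines are group means. All 5 BMPC ratios lie between 7.50 and 15.5 and all others between 0.917 and 1.41.

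The other intron 1 regions, unlike +5.9 kb, were called lower in BMPC C than in nB C. The +5.0 kb region held 19.3, 17.7 and 18.1 RPPM in nB C, 19.8 and 17.8 in GCB C, and 2.21, 0.912 and 1.25 in BMPC C. Its nB and GCB libraries overlapped (log2 fold change 0.03 ± 0.25, limma adjusted p = 0.929), while BMPC lay far below (-3.01 ± 0.22 from nB, limma adjusted p = 5.38e-12). The +4.3 kb region fell by 3.25 on the log2 scale from nB to BMPC (limma adjusted p = 1.25e-11).

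Introns 4 and 5 held a block of regions with strong signal in B cells. The +42.9 kb region (chr4:44680157-44680763, intron 5) gave 43.4, 42.6 and 41.1 RPPM in nB C, 30.8 and 37.5 in GCB C, and 3.51, 1.46 and 4.83 in BMPC C. GCB lay somewhat below nB without a call (-0.31 ± 0.25, limma adjusted p = 0.339), and BMPC was lower by 3.43 ± 0.23 on the log2 scale (limma adjusted p = 6.12e-13). The +29.9 kb region (chr4:44692962-44693846, intron 4) had the lowest log2 fold change of RPPM + 1 from nB C to BMPC C among the members, from 37.0, 29.4 and 29.6 RPPM to 2.47, 0.730 and 1.09 (-3.82 ± 0.25, limma adjusted p = 4.94e-13), with GCB at 22.9 and 26.2.
The +37.6 kb region (chr4:44685411-44686081) stood at 42.6, 38.4 and 39.6 RPPM in nB C, 18.0 and 20.6 in GCB C, and 5.59, 2.01 and 1.87 in BMPC C, so it fell at both steps (nB to GCB -1.02 ± 0.30, limma adjusted p = 0.00714; GCB to BMPC -2.40 ± 0.30, adjusted p = 1.76e-07). The first of these calls was lost when any 1 of the nB C or GCB C libraries was left out (log2 fold change -1.11 to -0.93). The +39.0 kb region (chr4:44683899-44684730), its nearest neighbor, kept more signal, with 54.6, 51.4 and 46.7 RPPM in nB C and 15.7, 9.49 and 15.6 in BMPC C (-1.86 ± 0.17, limma adjusted p = 3.43e-10). Regions from +42.9 to +29.9 kb also lie in the noncoding gene Gm12462 on the other strand, and ATAC-seq does not assign a strand to a region.

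Of the 4 regions in intron 6, 2 were called higher and 2 lower in BMPC C than in nB C. The +85.7 kb region (chr4:44637175-44638139) held 5.12, 4.33 and 4.47 RPPM in nB C, 14.95 and 10.8 in GCB C, and 17.3, 16.4 and 16.4 in BMPC C. Every GCB and BMPC library exceeded every nB library, also among the KO libraries (5.92 and 5.71 in nB, 7.71 to 13.6 in GCB, 17.6 and 13.3 in BMPC). Against nB in C the log2 difference of GCB was 1.28 ± 0.24 (limma adjusted p = 8.60e-05) and that of BMPC 1.65 ± 0.21 (limma adjusted p = 1.78e-07). It was 0.37 ± 0.24 from GCB to BMPC (limma adjusted p = 0.205). In KO the difference of GCB from nB was smaller, at 0.64 ± 0.23, and not called (limma adjusted p = 0.0207). That of BMPC from nB in KO was called, at 1.26 ± 0.26 (limma adjusted p = 0.00022).
The weaker +93.2 kb region (chr4:44629973-44630343) held 0.487, 0.565 and 0.558 RPPM in nB C. These are 2, 3 and 3 reads, no more than the 3 that a count of 0 allows. It rose to 5.28 and 2.34 RPPM in GCB C (12 and 5 reads) and 2.34, 2.74 and 3.43 in BMPC C. The log2 differences from nB were 1.58 ± 0.39 and 1.31 ± 0.34 (limma adjusted p = 0.00159 and 0.00194). Both calls rest on single libraries: without replicate 1 of GCB C the first was 1.12 (adjusted p = 0.0659), and without replicate 3 of BMPC C the second was 1.20 (adjusted p = 0.0138). In KO the +93.2 kb region differed by 0.89 ± 0.37 from nB to GCB and was not called (limma adjusted p = 0.0439). Its KO difference from nB to BMPC was called, at 1.535 ± 0.42 (limma adjusted p = 0.00338). Just beyond it, the +96.0 kb region held 18.5, 9.80 and 16.01 RPPM in nB C and 14.1 and 18.3 in GCB C. In BMPC C it held 2.08, 1.46 and 0.467 RPPM (-2.78 ± 0.29 from nB to BMPC, limma adjusted p = 3.95e-09). In intron 7, the +107.6 kb region was higher in GCB C (3.52 and 4.68 RPPM, from only 8 and 10 reads) than in nB C (0.744 to 1.51) or BMPC C (0.156 to 0.520). Its log2 fold changes were 1.25 ± 0.36 from nB to GCB (limma adjusted p = 0.00651) and -1.99 ± 0.36 from GCB to BMPC (limma adjusted p = 4.38e-05).

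**Figure D3:**
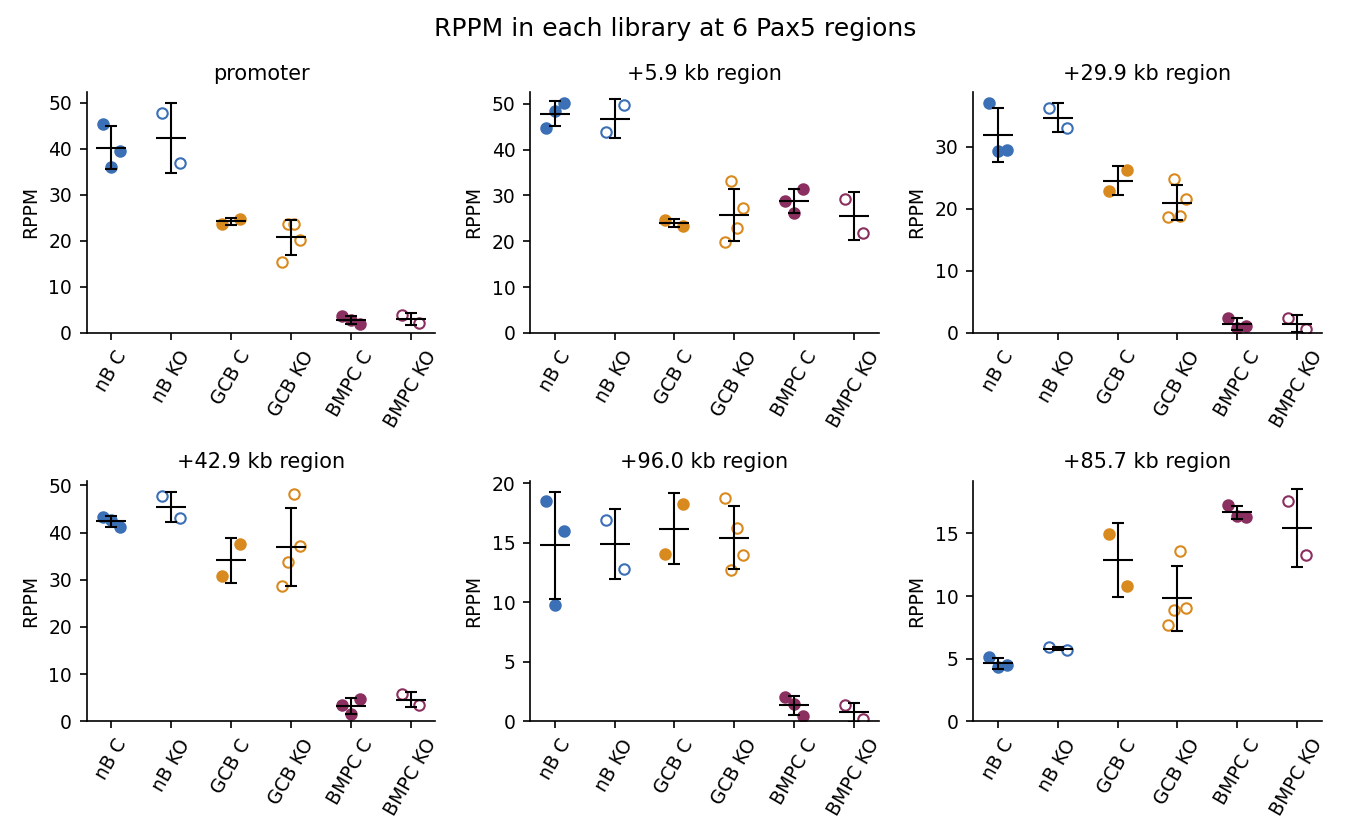
RPPM of 6 Pax5 regions in each library (vertical axis from 0), by group. Filled circles are C, open circles KO, and black bars are the mean ± SD. From nB to BMPC the +85.7 kb panel rises and the others fall, and BMPC at +5.9 kb stays between 21.8 and 31.5 RPPM.

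Upstream, the -18.7 kb region lost signal already in GCB. It held 13.2, 11.1 and 8.93 RPPM in nB C, 3.08 and 2.34 in GCB C, and 1.04, 0 and 0.156 in BMPC C, where the count of 0 allows up to 0.547 RPPM. On the log2 scale GCB differed from nB by -1.69 ± 0.50 (limma adjusted p = 0.00774). Only 7 and 5 reads stood behind the 2 GCB C values. The -2.9 kb region changed later, from a mean of 9.61 RPPM in nB C and 7.25 in GCB C to 1.60 in BMPC C. Of the weaker members, +31.5 and +76.1 kb fell from means of 5.98 and 2.07 RPPM in nB C to 0.139 and 0.242 in BMPC C, and both were called lower. The +144.7 kb region was called lower from nB C (4.31 RPPM) to BMPC C (1.30 RPPM; -1.20, limma adjusted p = 0.00671), a call lost without replicate 2 or 3 of either group (-1.25 to -0.94). The +133.0, +145.6 and +47.2 kb regions were not called between any of the 3 cell types in C.

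Counted over the locus, 16 of the 21 regions were called from nB to BMPC in C, beside 38.1% of all 66177 regions. Of these, 14 were lower (20.1% of all regions) and 2 higher (18.0%). The median log2 fold change was -2.04, beside 0.03 over all regions. From GCB to BMPC 12 were called (30.4% of all regions), of which 12 were lower (19.1% of all regions) and 0 higher (11.3%), with a median of -1.67. Limma gave 0 higher calls here, also 0 at an unadjusted p under 0.05, and edgeR and DESeq2 on recovered reads gave 0 as well. From nB to GCB 5 were called (22.7% of all regions), with 2 lower (8.47% of all regions) and 3 higher (14.2%) and a median of -0.37. The 5 calls of this step fell to 1 with a pseudocount of 5 and to 2 or 3 when any of its libraries was left out.

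The KO libraries showed the same course. From nB to BMPC 15 regions were called (35.3% of all regions), 13 lower (16.9%) and 2 higher (18.4%). From GCB to BMPC 13 were called (32.0%), 13 lower (19.9%) and 0 higher (12.1%; limma, with 1 higher at an unadjusted p under 0.05, and 0 called by edgeR or DESeq2 on recovered reads). From nB to GCB 6 were called (26.3%), 5 lower (7.84%) and 1 higher (18.4%). The genotypes were measured in separate libraries. For nB to BMPC they shared 15 regions, 15 of the 16 called in C and 15 of the 15 called in KO, all in the same direction. For GCB to BMPC the 12 regions called in C were all among the 13 called in KO. For nB to GCB they shared 3 of the 5 called in C and 3 of the 6 called in KO, and the promoter was among those called in KO (-1.004, limma adjusted p = 0.000501) and not in C (-0.70).

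**Figure D4:**
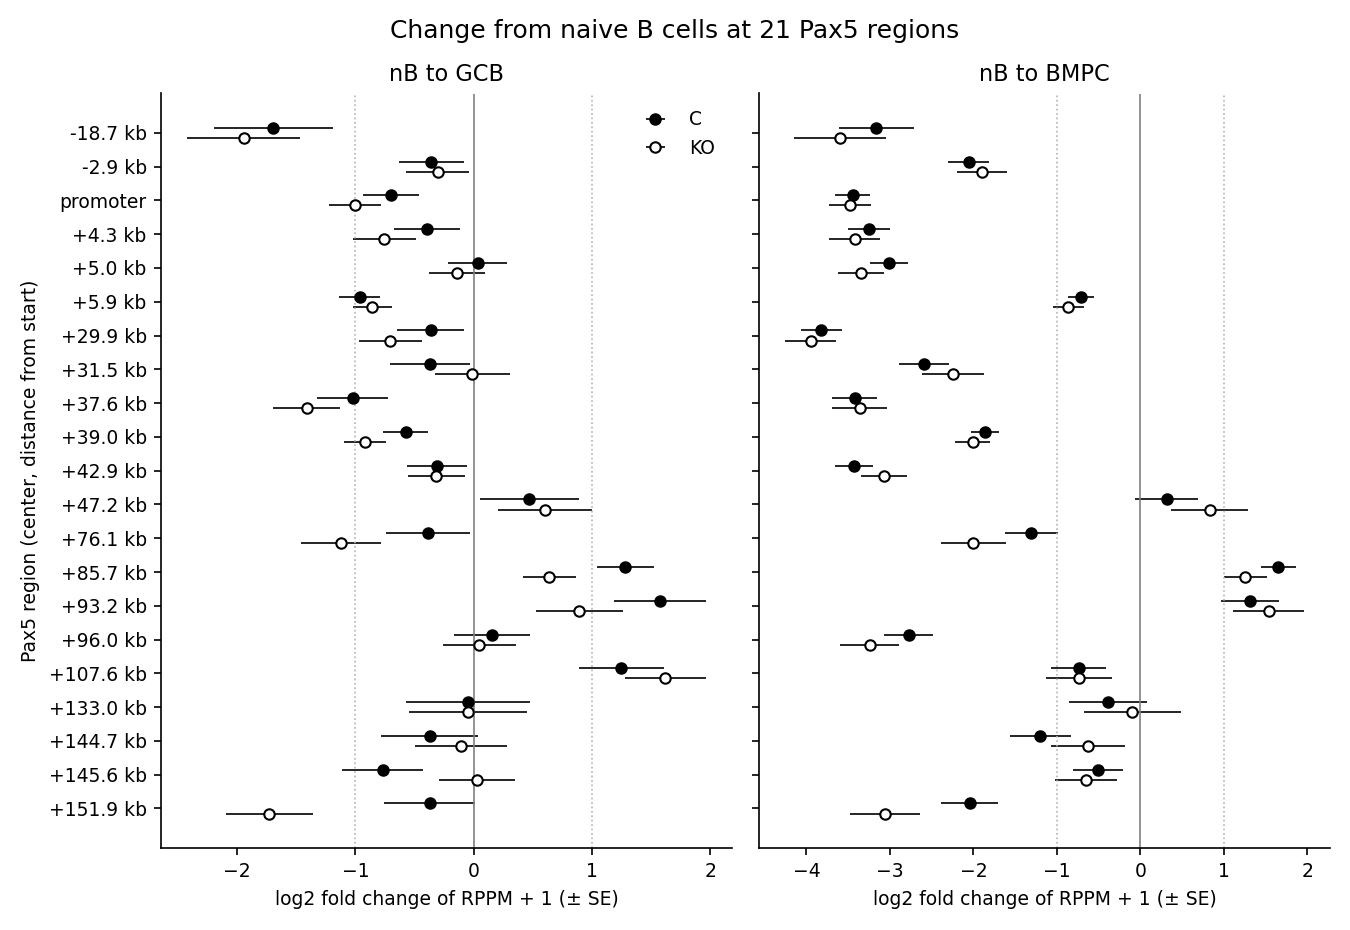
Log2 fold change (limma on log2(RPPM + 1), with standard error) of each of the 21 regions of GCB (left) and BMPC (right) against nB, by its position in the gene (vertical axis). Filled circles are C, open circles KO, and dotted lines mark 2-fold. From nB to BMPC in C, 14 regions were called lower and 2 higher.

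Loss of Dnmt3a and Dnmt3b was compared with C within each cell type, which asked whether accessibility of the locus depends on de novo methyltransferases. The summed signal in KO differed from C by 0.14 on the log2 scale in nB (two-sided exact permutation test, p = 0.2, the smallest that 3 against 2 libraries allow), by -0.01 in GCB (exact permutation test, p = 0.933) and by 0.04 in BMPC (exact permutation test, p = 0.8). No member was called in any cell type (0 of 21 each) by limma, and 1 of 21 had an unadjusted limma p under 0.05 in each. Over all regions limma called 0% in nB, 0.0317% in GCB and 0.104% in BMPC. On recovered reads the members called were also 0 of 21 in each cell type by edgeR and by DESeq2. The shares of all regions in nB, GCB and BMPC were then 0.0106%, 0.00151% and 1.81% with quasi-likelihood edgeR, 0.0151%, 0.0181% and 2.53% with the edgeR likelihood ratio, and 0.00151%, 0% and 0.746% by DESeq2. At the promoter the 95% intervals of the log2 difference were -0.41 to 0.55 in nB, -0.69 to 0.22 in GCB and -0.45 to 0.51 in BMPC, and at +5.9 kb they were -0.39 to 0.32, -0.27 to 0.41 and -0.53 to 0.18. A 2-fold difference therefore lay outside the interval at both regions in all 3 cell types. At some weaker members the interval reached past 2-fold, so a difference of that size was not excluded there. Examples are +47.2 kb in nB (-0.29 to 1.43), +93.2 kb in GCB (-1.45 to 0.05) and -18.7 kb in BMPC (-1.32 to 0.74).

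The member with an unadjusted p under 0.05 was a different one in each cell type. In nB it was the +151.9 kb region of intron 8, at 2.68, 3.39 and 3.91 RPPM in C and 7.90 and 8.66 in KO. The groups did not overlap (log2 difference 1.11, 95% interval 0.32 to 1.90), but the limma adjusted p was 1. In GCB it was the +145.6 kb region, at 5.72 and 1.87 RPPM in C and 7.71, 8.27, 6.58 and 7.69 in KO (0.96, 95% interval 0.30 to 1.62, limma adjusted p = 0.220), where the difference fell to 0.35 without replicate 2 of C. In BMPC it was the +47.2 kb region, at 3.25, 0.912 and 2.02 RPPM in C and 6.44 and 4.11 in KO (1.08, 95% interval 0.22 to 1.94, limma adjusted p = 0.313). The +144.7 kb region followed it in BMPC, with 1.95, 0.547 and 1.40 RPPM in C and 4.74 and 1.68 in KO, which overlap (0.82, 95% interval -0.02 to 1.66). Next in BMPC was the +42.9 kb region, with 3.51, 1.46 and 4.83 RPPM in C and 5.71 and 3.55 in KO, which also overlap (0.46, 95% interval -0.06 to 0.98). Second in GCB was the +93.2 kb region, lower in KO (-0.70, 95% interval -1.45 to 0.05).
Every KO library lay above every C library at 8 of the 21 regions in nB, beside 9.38% of all regions, and below at 0 (11.0%). In GCB 1 member lay wholly above (7.47%) and the promoter wholly below (5.52%). In BMPC 1 lay wholly above (20.0%) and 0 below (13.8%). The summed signal in nB, higher in KO by 0.14 on the log2 scale, contains those 8 regions and is not separate support. All were read in the same libraries, so the regions are not independent of each other. The difference between cell types in the KO effect, tested as an interaction in limma, gave 0 calls among the members and 0% of all regions, with 1 member at an unadjusted p under 0.05 for GCB against nB and 0 for the other pairs.

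**Figure D5:**
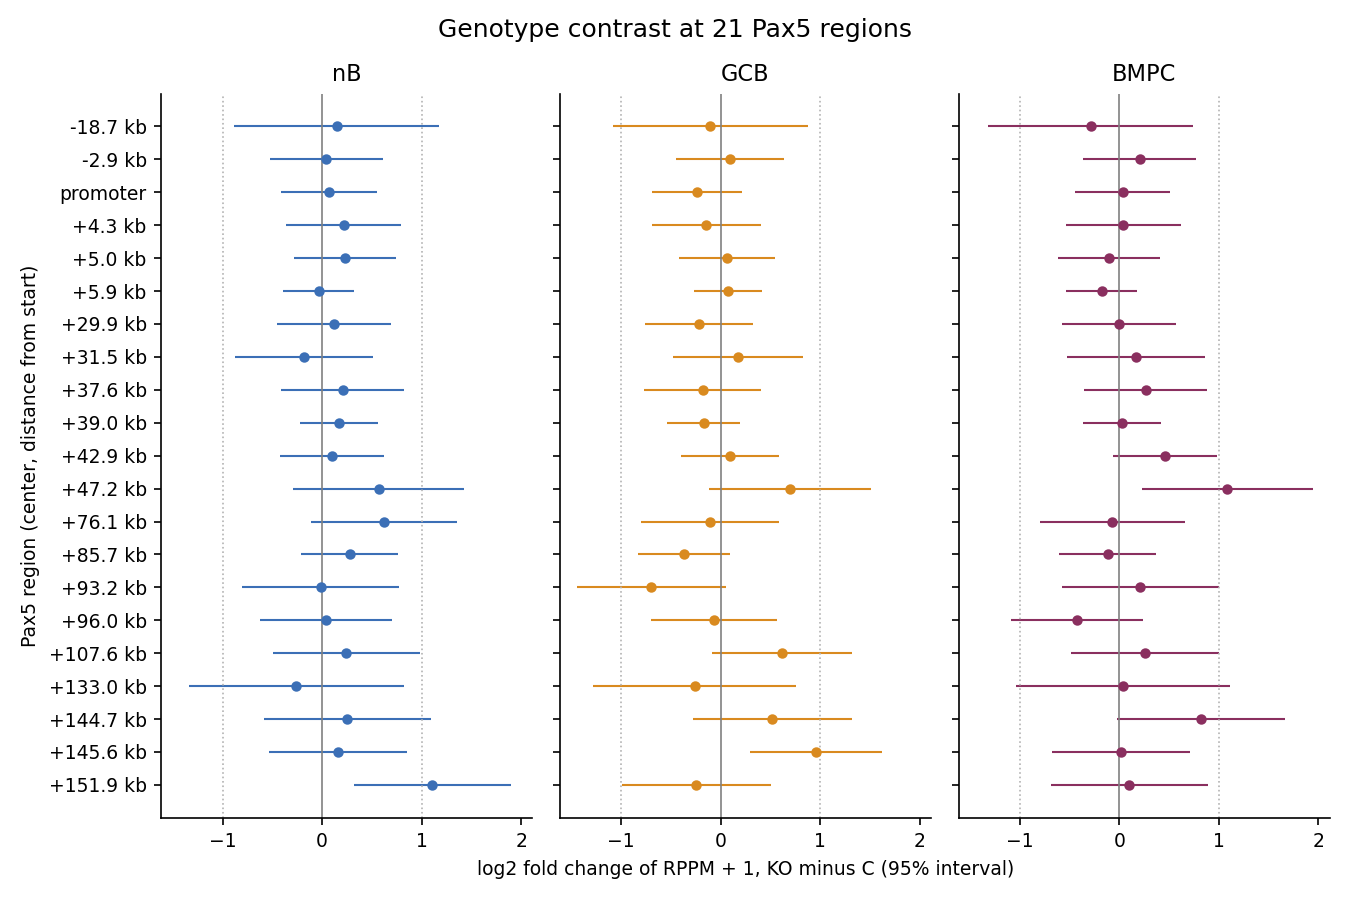
KO minus C log2 difference of each of the 21 regions in nB, GCB and BMPC, with 95% intervals from limma and dotted lines at 2-fold. No region passed the limits in any cell type, and the +151.9 kb region in nB stands at 1.11.

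Genes that act with Pax5 were read at their promoter rows for C, nB to BMPC. Of 16 genes that Pax5 is known to activate, 6 were called lower and 0 higher (limma), beside 6.41% lower and 11.2% higher among all 14332 promoter rows. Among them were Fcer2a (-4.39), the IgE receptor CD23; Cd22 (-2.90), an inhibitory coreceptor; Lef1 (-1.75), a transcription factor; Cd72 (-1.50); and Cd79a (-1.35), a signaling chain of the B cell receptor. The median of the 16 was -0.75, beside 0.10 over all promoter rows. Of 14 genes that Pax5 represses, 12 had a promoter row, and 4 were called higher and 0 lower, namely Jchain (3.87), the joining chain of polymeric antibody, Cd28 (3.01), a costimulatory receptor, Il2rb (1.44) and Flt3 (1.34), cytokine receptors, with a median of 0.57. In the KO libraries 2 of these 12 were called higher (11.4% of promoter rows) and 0 lower (5.85%), with Il2rb at 0.39 (limma adjusted p = 0.353) and Flt3 at 0.54 (adjusted p = 0.0135) not called. Among the promoter rows of 10 regulators of Pax5 or of plasma cell fate none was called, from -0.57 at Ebf1 to 0.56 at Prdm1. From nB to GCB, the Ebf1 promoter row was the 1 of the 10 called lower (-1.16, limma adjusted p = 5.27e-07). At that step 6.99% of all promoter rows were called lower and 8.88% higher. Prdm1, Irf4, Irf8 and Ebf1 stand on more than 1 list. Counted over all regions of these genes, calls from nB to BMPC in C went both ways. Of 226 regions of the activated genes, 104 were called lower and 30 higher. Of 141 regions of the repressed genes, 29 were called lower and 39 higher. Of 245 regions of the regulators, 62 were called lower and 41 higher. Among all regions of the series, 20.1% were called lower and 18.0% higher. No promoter row of these lists was called between KO and C in any cell type. Such calls were rare among all promoter rows. They made up 0% in nB, 0.0209% higher and 0% lower in GCB, and 0.0419% higher and 0.0279% lower in BMPC. Of the Pax family, 4 of 8 genes had a region in the table and 2 a promoter row, and Pax6, an eye and brain factor, had means of 3.55, 37.3 and 4.45 RPPM there in nB, GCB and BMPC C.

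Upstream of Pax5 the neighboring gene Zcchc7 shared the fall. Its 22 regions lay 46.0 to 234.4 kb upstream of the Pax5 start. From nB to BMPC in C, 18 were called lower (20.1% of all regions) and 0 higher (18.0%). The median log2 fold change over its regions was -1.98. Its own promoter row was not called, with means of 88.4, 63.8 and 90.6 RPPM in nB, GCB and BMPC C (0.05 from nB to BMPC, limma adjusted p = 0.761). Summed over its regions Zcchc7 held 308 ± 26.7 RPPM in nB (SD, n = 5), 218 ± 15.5 in GCB (n = 6) and 139 ± 10.8 in BMPC (n = 5). The other 9 genes within 500 kb had 34 regions. From nB to BMPC in C, 4 of them were called higher (18.0% of all regions) and 2 lower (20.1%).
Across the 16 libraries, the genes whose summed signal was most like that of Pax5, among 1568 genes, were Ly86 (Pearson r = 0.991), Ksr1 (0.991), Gm8369 (0.990), Pstpip1 (0.989) and Btg1 (0.989). Zcchc7 was the gene at rank 138 (r = 0.958). At promoter rows, among 4288 genes, they were Pydc3 (0.987), Btnl1 (0.985), Dusp2 (0.985), Dek (0.984) and Lfng (0.984). These libraries fall into 3 cell types and share a scaling to the reads in regions, so differences between cell types enter r, and none of either 5 stayed among the top 5 over the 6 group means.

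The motif counts over the 21 regions are a description, with no test. Cores of E2A were found in 6 regions (28.6%, beside 32.4% of the 65893 regions that could be read), of PU.1 in 7 (33.3% beside 43.2%), of IRF in 12 (57.1% beside 72.6%), of EBF in 6 (28.6% beside 21.8%), of BLIMP1 in 5 (23.8% beside 13.5%), of AP-1 in 2 (9.52% beside 16%) and of the octamer in 3 (14.3% beside 13.2%). The PAX5 core was found in 0 (3.13% of all). Whole regions were searched on both strands, and widths differed, with a median of 463 bp in the members and 510 bp in all. The +5.9 kb region had the highest GC content of the members, 66.8%.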

How the data were processed

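ATAC-seq values of 16 libraries were used, for nB, GCB and BMPC of each genotype; 1 further BMPC KO library had no values here. The authors aligned reads to mm9, called and merged peaks, and deposited RPM-type values (RPPM, reads in a region scaled to 1000000 reads in regions) per region and library. The submitters' processing notes name Bowtie 1.1.1, Picard 1.127, MACS2 2.1.0.20140616 and edgeR 3.12.1. The deposited table also holds the authors' fold changes and p-values for 9 comparisons, which were not used. Multiplying RPPM by the depth that its steps give returned whole reads for 100% of values (within 1e-06), at 907959 to 8232313 reads per library. The number of reads limits precision, and limits from counts cover counting error only.

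Differences were fitted with limma 3.58.1 (R 4.3.3) on log2(RPPM + 1), so folds of low regions are understated, with 6 group means and a mean-variance trend. P-values were adjusted by Benjamini-Hochberg over 66177 regions, and regions were called at adjusted p of at most 0.01 and at least 2-fold. Sums, shares and ratios were compared by two-sided exact permutation tests (scipy 1.17.1). edgeR 4.0.16 and DESeq2 1.42.0 on the recovered reads, other pseudocounts, scalings and filters, and leaving out each library were alternatives. The fits were tested on simulated data. Sequences and exons were read from NCBIM37 (mm9) with GENCODE M1, and 284 regions outside its named chromosomes were left out of the motif search. Regions named by rule were the promoter, the 5 of highest mean RPPM, the 3 of largest and 3 of smallest fold change between nB and BMPC of C mice, and those of smallest p between genotypes in BMPC (3) and GCB (2); the others were named after their values were seen. The members and gene lists were chosen with earlier results of these data known. Nothing in the labels says that libraries of a group are from separate litters or days, so p-values measure the spread between these libraries. Results on a few genes, and the driver of Cre, are not reported here.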

Additional observations from a re-analysis of the deposited data

How the results depend on the processing

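Among the results for single named regions, 524 alternatives kept direction and call, 31 lost the call, 4 gained one and none reversed. Calls from nB to GCB were the least stable. In C the 5 called regions became 2 with a pseudocount of 0.1, 1 with a pseudocount of 5, 2 with quantile scaling and 2 to 3 without any 1 library. In KO the 6 became 3, 2 and, without any 1 library, 3 to 7. The 13 called from GCB to BMPC in KO became 8 with a pseudocount of 5 and 10 to 13 without any 1 library. Without any 1 library, 14 to 16 were called from nB to BMPC in C, 14 to 15 in KO and 11 to 13 from GCB to BMPC in C. At +5.9 kb the nB to GCB difference in C was called by edgeR (-1.03) and DESeq2 and not by limma (-0.96). Differences of the summed signal between genotypes were near 0 and changed sign: in GCB to 0.00082 without mitochondrial regions, to 0.0078 for regions inside the gene, and -0.032 to 0.038 without any 1 library, and in BMPC to -0.028 with TMM and -0.25 to 0.34 without any 1 library. The genotype difference of the promoter share ranged from -1.51 to 0.427 percentage points in nB and -0.602 to 0.272 in BMPC without any 1 library. Counting the +5.9 kb region with the promoter, an alternative chosen after seeing the data, turned the share from a fall into a rise of 10.2 percentage points from nB to BMPC (exact permutation p = 0.00794) and 15.8 from GCB to BMPC (p = 0.00433). None of the 5 most similar genes (0) stayed over group means. The GCB pools include 2 pairs that share a name in both genotypes, and their deviations from the group means correlated at 0.036 and 0.064. With 2 C libraries those deviations mirror each other, so what the shared names stand for cannot be told. With the names as a replicate block, 0 Pax5 regions were called between KO and C, beside 135 of all 66177 regions (21 without the block). The shallowest GCB library limits detection there to 3.30 RPPM.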
